A study of Mus musculus with 5 samples.

Results

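The distal nephron and the collecting duct are specified by a small set of DNA-binding proteins, and 9 of their genes are described here: Gata3, Elf5, Tfcp2l1, Grhl2, Emx1, Emx2, Tfap2a, Tfap2b and Mecom. They were taken by name as a list, and all 9 were found among the 32793 genes of the deposited tables. Gene expression was measured by bulk RNA sequencing of whole mouse kidneys, taken at embryonic day 15.5. The 2 NICD_mut libraries came from kidneys carrying Six2TGC/+, a Cre driver active in nephron progenitors, and RosaN1ICD∆PEST, an allele that yields activated Notch1 without its PEST domain where Cre has acted. The 3 NICD_wt libraries came from littermates that carried RosaN1ICD∆PEST and no Cre. The Cre driver was present in every NICD_mut library and in no NICD_wt library, so its effect and that of activated Notch1 cannot be told apart. The labels do not state whether a library came from 1 animal, and p-values here describe only how these libraries spread, which may be partly technical.

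The kidney tubule has a double origin. Podocytes, proximal tubule, loop of Henle and distal tubule arise from Six2-positive nephron progenitors, whereas the collecting duct grows from the ureteric bud, an outgrowth of the nephric duct. Notch signalling acts in the forming nephron and is also used in the duct, where it helps to separate principal from intercalated cells. Gata3 and Emx2 are needed for the nephric duct and the ureteric bud. Tfcp2l1, Grhl2 and Elf5 act in the duct epithelium, and Tfap2b is needed for the distal tubule. Mecom and Emx1 are known as distal nephron factors mainly from the zebrafish pronephros.

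The 5 libraries held 17361823 to 21356447 counts, and 15885 genes were tested. Notch1 and the progenitor gene Six2 were taken as a check of the labels. Notch1 had 6132 and 6570 counts in NICD_mut, against 2529, 3026 and 2089 counts in NICD_wt. Six2 had 7 and 6 counts in NICD_mut, against 2667, 3015 and 2411 counts in NICD_wt. All 8 genes chosen to mark kidney, such as Wt1, Pax8 and Cdh16, were present in every library. NICD_mut 1 stood apart by its skeletal muscle transcripts. The summed level of 8 muscle genes was 3235 CPM (counts scaled to the same library total) in NICD_mut 1 and 14.6 CPM in NICD_mut 2. It was 137 CPM in NICD_wt 1, 5.47 CPM in NICD_wt 2 and 4.78 CPM in NICD_wt 3.

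Promoter windows of 300 bases, 250 before and 50 after an annotated start, were taken from RefSeq on GRCm38.p6. They were found for 8 of the 9 genes, 11 windows in all. A set of 5 windows is shown for 3 reasons: Tfap2b and Tfap2a are relatives that fell to unlike degrees, Emx1 fell while its relative Emx2 did not pass the test, and the Gata3 window holds the most AP-2 letters. Capitals mark TGGGAA, the core bound by Rbpj, the DNA-binding partner of Notch, or GCCNNNGGC, the site of AP-2 proteins, each searched on both strands. The Tfap2b window holds neither.
Tfap2b, chr1:19211804-19212103, plus strand: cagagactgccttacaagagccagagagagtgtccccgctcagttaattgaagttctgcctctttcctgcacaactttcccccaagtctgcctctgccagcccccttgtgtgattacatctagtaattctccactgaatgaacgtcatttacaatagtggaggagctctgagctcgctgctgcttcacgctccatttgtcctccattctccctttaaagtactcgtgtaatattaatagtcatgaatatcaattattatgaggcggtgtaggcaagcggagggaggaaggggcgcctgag
Tfap2a, chr13:40734871-40735170, minus strand: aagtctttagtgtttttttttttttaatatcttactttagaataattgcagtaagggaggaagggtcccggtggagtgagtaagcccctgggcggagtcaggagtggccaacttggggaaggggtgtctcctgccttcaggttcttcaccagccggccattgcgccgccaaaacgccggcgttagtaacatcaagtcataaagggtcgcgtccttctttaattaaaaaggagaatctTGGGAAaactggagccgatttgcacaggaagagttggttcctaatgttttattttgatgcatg
Emx1, chr6:85187681-85187980, plus strand: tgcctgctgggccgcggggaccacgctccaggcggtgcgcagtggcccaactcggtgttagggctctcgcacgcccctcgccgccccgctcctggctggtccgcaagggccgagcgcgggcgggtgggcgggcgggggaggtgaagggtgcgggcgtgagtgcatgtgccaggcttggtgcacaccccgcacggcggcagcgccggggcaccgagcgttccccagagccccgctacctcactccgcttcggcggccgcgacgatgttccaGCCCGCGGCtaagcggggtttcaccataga
Emx2, chr19:59458440-59458739, plus strand: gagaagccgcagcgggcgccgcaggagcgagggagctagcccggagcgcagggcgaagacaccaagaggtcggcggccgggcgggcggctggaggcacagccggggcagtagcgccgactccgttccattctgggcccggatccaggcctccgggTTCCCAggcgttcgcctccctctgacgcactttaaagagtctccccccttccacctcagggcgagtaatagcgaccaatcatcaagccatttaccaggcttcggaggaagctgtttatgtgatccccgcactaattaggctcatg
Gata3, chr2:9878551-9878850, minus strand: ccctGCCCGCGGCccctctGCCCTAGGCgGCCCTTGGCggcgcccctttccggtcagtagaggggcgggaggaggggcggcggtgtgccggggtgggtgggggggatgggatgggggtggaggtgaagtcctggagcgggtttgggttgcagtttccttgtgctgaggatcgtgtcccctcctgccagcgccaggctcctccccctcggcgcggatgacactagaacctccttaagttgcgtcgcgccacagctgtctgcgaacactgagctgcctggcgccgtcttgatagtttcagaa

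The Rbpj letters TGGGAA occurred in 2 of the 11 windows, those of Emx2 and of 1 start of Tfap2a, against 25.6% of the 32851 windows of all genes. The Tfap2a match began 13 bases before the start and the Emx2 match 95 bases before it. The AP-2 letters GCCNNNGGC occurred in 3 windows, with 3 matches in Gata3 and 1 each in Emx1 and Tfcp2l1, against 16.6% of all windows. No capitals of the 2 kinds overlapped. The GATA letters AGATAA occurred in 0 of the 11 windows, against 11.2% of all windows. Other forms of the GATA site were not searched, so this does not show that the windows lack one. The windows differed in base composition: 74% of the Emx1 window was G or C, 67.3% of the Gata3 window and 48.3% of the Tfap2b window, with a median of 52.7% over all windows. A match describes letters and does not show binding.

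Of the 9 genes, 8 fell in NICD_mut, 0 rose and 1, Emx2, missed the threshold. The test was the quasi-likelihood test of edgeR, with p-values adjusted by Benjamini and Hochberg over all tested genes and a threshold of 0.05. By this rule 47.7% of all tested genes passed, 24.8% as lower and 23% as higher in NICD_mut. On log2(TPM + 1), limma passed 2785 genes as lower and 4307 as higher, against 3934 and 3649 from counts. The fall was at least 2-fold for 7 of the 9, against 4.01% of all tested genes. Before rounding, CPM of the groups did not overlap for all 9, each lower in NICD_mut. For Emx2 the groups met at 58.1 CPM once rounded, and they overlapped in TPM. Among all tested genes groups were apart in CPM for 67.2%, made up of 34.2% lower and 32.9% higher. The median log2 fold change, NICD_mut minus NICD_wt, was -1.55 over the 9 genes and 0.01 over all tested genes. All 9 passed the filter on low counts, and each had at least 30 counts in every library, so none was tested through NICD_wt alone. Without NICD_mut 1, the library with the most muscle transcripts, the same 8 fell: Tfap2b was at -5.07, Grhl2 at -2.60, Tfap2a at -2.37, Elf5 at -2.08, Gata3 at -1.70, Mecom at -1.44, Emx1 at -1.22 and Tfcp2l1 at -0.71 on the log2 scale. Emx2 was then at -0.08 and did not pass. In tissue of mixed composition, fewer cells of a type and less RNA per cell cannot be told apart.

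**Figure D1:**
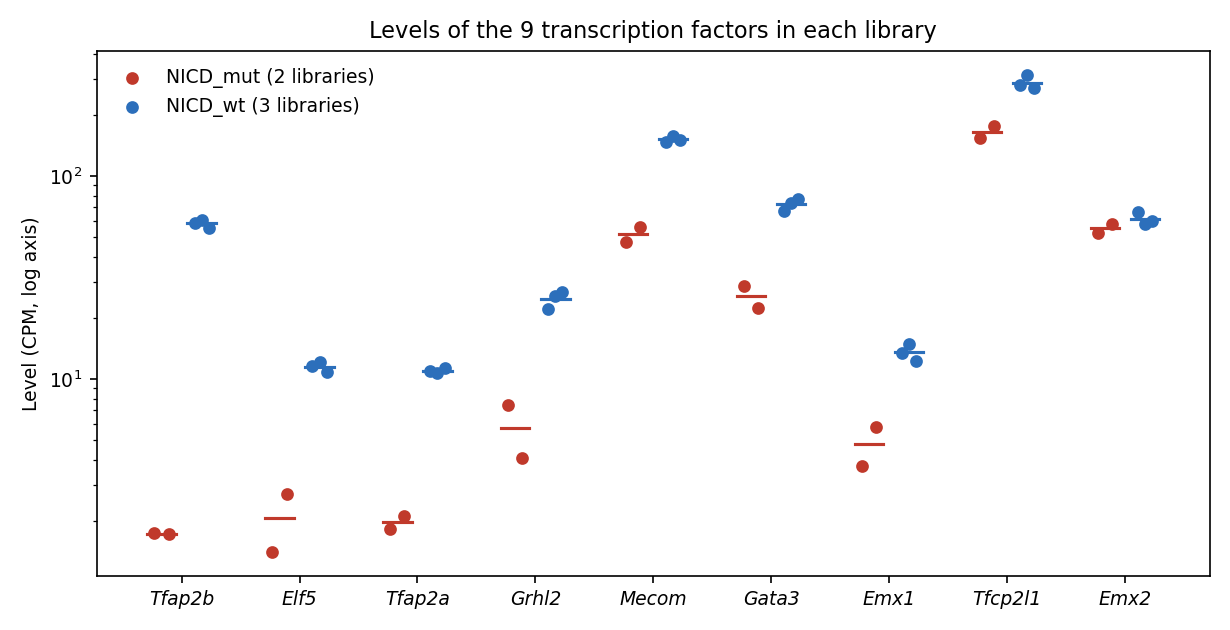
Level of each of the 9 transcription factors in each library, in CPM on a log axis, ordered by fold change. Points are libraries (NICD_mut left, NICD_wt right) and bars are group means. Tfap2b lies near 1.7 CPM in NICD_mut against 55.1 to 60.9 CPM in NICD_wt, and the groups of Emx2 meet at 58.1 CPM.

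Tfap2b, an AP-2 transcription factor that the distal tubule needs in mice, showed the lowest level relative to NICD_wt. The gene lies on chromosome 1 at 19208914 to 19238576 on the plus strand (mm10). It had 37 and 35 counts in NICD_mut, against 1168, 1302 and 958 counts in NICD_wt. Both NICD_mut libraries were far below every NICD_wt library and were nearly equal to each other. The mean was 1.73 ± 0.00637 CPM (SD, n = 2) in NICD_mut, against 58.3 ± 2.93 CPM (SD, n = 3) in NICD_wt, so 2.97% of the NICD_wt level was present. The log2 fold change was -5.07 (standard error, SE, 0.12; edgeR, adjusted p = 5.22e-08).

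Its relative Tfap2a, which is known best from neural crest and skin and is also made in the collecting duct, lies on chromosome 13 at 40715302 to 40738376 on the minus strand. Tfap2a had 39 and 43 counts in NICD_mut, against 218, 228 and 196 counts in NICD_wt, with no overlap between the groups. Its log2 fold change was -2.47 (SE 0.19; edgeR, adjusted p = 2.37e-05), which left 18% of the NICD_wt level in CPM. Within each library, the ratio of Tfap2a to Tfap2b in TPM (a level normalised for transcript length and library total) was 3.04 and 1.77 in NICD_mut, against 0.431, 0.373 and 0.547 in NICD_wt. Tfap2a was thus the more abundant of the pair in both NICD_mut libraries and the less abundant in all 3 NICD_wt libraries. The exact two-sided permutation test of this log2 ratio gave p = 0.1, the smallest value that 2 against 3 libraries can give. The other AP-2 genes were near or at 0. Tfap2d had 0 counts in every library, Tfap2e had at most 2, and Tfap2c had 8 and 5 counts in NICD_mut against 4, 8 and 2 counts in NICD_wt.

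Gata3, a zinc finger factor of the nephric duct and its derivatives, lies on chromosome 2 at 9857078 to 9890034 on the minus strand. It had 611 and 454 counts in NICD_mut, against 1334, 1572 and 1343 counts in NICD_wt. The mean was 25.5 ± 4.43 CPM (SD, n = 2) in NICD_mut, against 72.7 ± 5.12 CPM (SD, n = 3) in NICD_wt, with the groups well separated. The log2 fold change was -1.51 (SE 0.11; edgeR, adjusted p = 2.84e-05). Gata3 overlaps 2 other genes of the count table, 4930412O13Rik on the opposite strand and 9230102O04Rik on the same strand. The first had 30 and 38 counts in NICD_mut against 57, 71 and 72 counts in NICD_wt, and the second at most 12 counts in any library. Since no strand setting is given in the sources used here, reads of Gata3 and of its antisense neighbour may not be fully separated.

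Gata3 is not restricted to the duct. It is also made in mesangial cells, sympathetic neurons and lymphocytes. Markers of mesangial cells and of sympathetic neurons moved in both directions, and the 1 lymphoid gene tested did not pass. Of 6 mesangial and mural genes 3 rose, 1 fell and 2 did not pass. Among all tested genes 23% rose and 24.8% fell. The summed level of these 6 was 1214 and 911 CPM in NICD_mut against 665 to 792 CPM in NICD_wt, and Acta2, of smooth muscle, made up 534 and 113 CPM of it in NICD_mut. Named after their values were seen, the mesangial integrin Itga8 fell (77.4 and 59.9 CPM in NICD_mut against 112, 123 and 123 CPM in NICD_wt), and the renin gene Ren1, at 69 and 90.8 CPM in NICD_mut against 163, 172 and 96.9 CPM in NICD_wt, did not pass. Of 10 tested sympathetic and glial genes 6 rose, 1 fell and 3 did not pass. The one that fell was Elavl4, at 0.657 and 1.04 CPM in NICD_mut against 7.15, 6.88 and 8.98 CPM in NICD_wt. For all 11 genes of the list the sum was 37.6 and 22 CPM in NICD_mut against 16.2 to 21.6 CPM in NICD_wt, and Th was at 0 in NICD_wt 3. The part of such cells in the level of Gata3 was not tested. Of 4 lymphoid genes 2 had a count, Cd3d and Cd3e were at 0 in every library and Cd3g was at 0 in NICD_wt. Their sum was 1.41 and 0.296 CPM in NICD_mut against 0.115 to 0.755 CPM in NICD_wt.

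Tfcp2l1, a CP2-family factor that patterns the collecting duct into its cell types, was the factor with the smallest change that passed. It lies on chromosome 1 at 118627945 to 118685168 on the plus strand. It had 3259 and 3578 counts in NICD_mut, against 5546, 6739 and 4686 counts in NICD_wt. The mean was 165 ± 16.7 CPM (SD, n = 2) in NICD_mut, against 288 ± 24.1 CPM (SD, n = 3) in NICD_wt, and the groups did not overlap. At a log2 fold change of -0.81 (SE 0.09; edgeR, adjusted p = 0.000162), 57.2% of the NICD_wt level was present. Its ubiquitous relatives Tfcp2 and Ubp1 did not pass, at log2 fold changes of 0.10 (SE 0.09) and -0.11 (SE 0.06).

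Grhl2, a Grainyhead factor that drives junction genes of tight epithelia, lies on chromosome 15 at 37233036 to 37363569 on the plus strand. It had 158 and 83 counts in NICD_mut, against 438, 549 and 464 counts in NICD_wt. The NICD_mut libraries differed from each other by 1.81-fold in CPM, and both were below every NICD_wt library. The log2 fold change was -2.11 (SE 0.24; edgeR, adjusted p = 0.000538).

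Its paralog Grhl1, a Grainyhead factor known from the epidermis, went the other way. It had 266 and 452 counts in NICD_mut, against 91, 109 and 76 counts in NICD_wt, giving a log2 fold change of 1.89 (SE 0.24; edgeR, adjusted p = 0.00035). The TPM ratio of Grhl1 to Grhl2 was 2.37 and 6.95 in NICD_mut, against 0.294, 0.278 and 0.223 in NICD_wt. Grhl1 was therefore the more abundant per length in each NICD_mut library and Grhl2 in each NICD_wt library (exact two-sided permutation test of the log2 ratio, p = 0.1, the smallest possible). The other paralog, Grhl3, had 176 and 68 counts in NICD_mut against 54, 77 and 76 counts in NICD_wt and did not pass. Grhl3 followed NICD_mut 1: its log2 fold change was 0.71 with all libraries, 1.21 without NICD_mut 2 and -0.09 without NICD_mut 1. Of these only the value without NICD_mut 2 passed.

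Markers of urothelium, the lining of the renal pelvis and a tissue that makes Grhl and GATA factors, also differed between the NICD_mut libraries. All 8 had counts in every library and 0 passed the test; their sum was 81.3 CPM in NICD_mut 1 and 19.4 CPM in NICD_mut 2, against 26.9 to 40.4 CPM in NICD_wt. For 6 epidermis genes the sum was 65.5 and 32.3 CPM in NICD_mut against 26.2 to 32.3 CPM in NICD_wt. Grhl2 and Gata3 were higher in NICD_mut 1 than in NICD_mut 2, as were these lists, and the part of such cells in the levels was not tested. Without NICD_mut 1 the log2 fold change was -2.60 for Grhl2 and -1.70 for Gata3, and without NICD_mut 2 it was -1.75 and -1.35.

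Elf5, an ETS-family factor of principal cells of the collecting duct, lies on chromosome 2 at 103411688 to 103450989 on the plus strand. It had 30 and 55 counts in NICD_mut, against 230, 259 and 188 counts in NICD_wt, so 17.9% of the NICD_wt level was present in CPM. The NICD_mut libraries differed by 1.93-fold, the widest gap among the 9 genes, and still lay below every NICD_wt library. The log2 fold change was -2.48 (SE 0.26; edgeR, adjusted p = 0.000137).

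The ELF paralogs split. Ehf, the epithelial ETS gene next to Elf5 on chromosome 2, had 541 and 331 counts in NICD_mut against 846, 1152 and 723 counts in NICD_wt. Its log2 fold change was -1.14 (SE 0.22; edgeR, adjusted p = 0.00905, and 0.0648 with replicate number as a block). Elf3, an epithelial paralog, rose by 0.74 (SE 0.12), Elf1 by 0.44 (SE 0.08) and Elf4 by 1.0 (SE 0.08) on the log2 scale. Elf2 did not pass at -0.01 (SE 0.06).

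Emx1 and Emx2 are related homeobox genes, and the data set them apart. Emx1 lies on chromosome 6 at 85187438 to 85204462 on the plus strand. It had 80 and 118 counts in NICD_mut, against 268, 318 and 214 counts in NICD_wt, with no overlap. Its log2 fold change was -1.50 (SE 0.21; edgeR, adjusted p = 0.000508).

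Emx2, without which mice form no kidney, lies on chromosome 19 at 59458372 to 59465357 on the plus strand. It had 1113 and 1178 counts in NICD_mut, against 1321, 1242 and 1039 counts in NICD_wt. In CPM the values were 52.2 and 58.1 in NICD_mut, against 66.5, 58.1 and 59.8 in NICD_wt, so the groups met to 3 significant digits. In TPM the groups overlapped, at 38.25 and 40.85 in NICD_mut against 43.74, 38.35 and 39.42 in NICD_wt. The log2 fold change was -0.16 (SE 0.08), with a 95% interval of -0.35 to 0.04 (edgeR, adjusted p = 0.161). This interval does not reach a 2-fold change in either direction. The TPM ratio of Emx1 to Emx2 was 0.182 and 0.259 in NICD_mut, against 0.515, 0.667 and 0.526 in NICD_wt (exact two-sided permutation test of the log2 ratio, p = 0.1, the smallest possible). Emx2os, which overlaps 264 bases of Emx2 on the opposite strand, was at 129 and 76 counts in NICD_mut against 159, 57 and 54 counts in NICD_wt and did not pass. Its counts are few beside those of Emx2.

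Mecom, a zinc finger regulator with a PR domain, spans 596.7 kb of chromosome 3, at 29951296 to 30548008 on the minus strand. It had 1007 and 1129 counts in NICD_mut, against 2903, 3357 and 2607 counts in NICD_wt. The mean was 51.5 ± 5.98 CPM (SD, n = 2) in NICD_mut, against 151 ± 5.54 CPM (SD, n = 3) in NICD_wt, and both groups were tight. The log2 fold change was -1.55 (SE 0.08; edgeR, adjusted p = 2.99e-06).

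Prdm16, the closest relative of Mecom, fell with it. Prdm16 had 243 and 186 counts in NICD_mut, against 666, 783 and 618 counts in NICD_wt, giving a log2 fold change of -1.78 (SE 0.12; edgeR, adjusted p = 1.24e-05). The TPM ratio of Mecom to Prdm16 was 8.75 and 13 in NICD_mut, against 9.98, 9.79 and 9.11 in NICD_wt, so the groups overlapped. Mecom is also made by endothelium. Of 8 endothelial genes 7 rose (23% of all tested genes did) and 1 did not pass. Their summed level was 1032 and 1187 CPM in NICD_mut, against 666 to 726 CPM in NICD_wt. The part of endothelial cells in the level of Mecom was not tested.

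**Figure D2:**
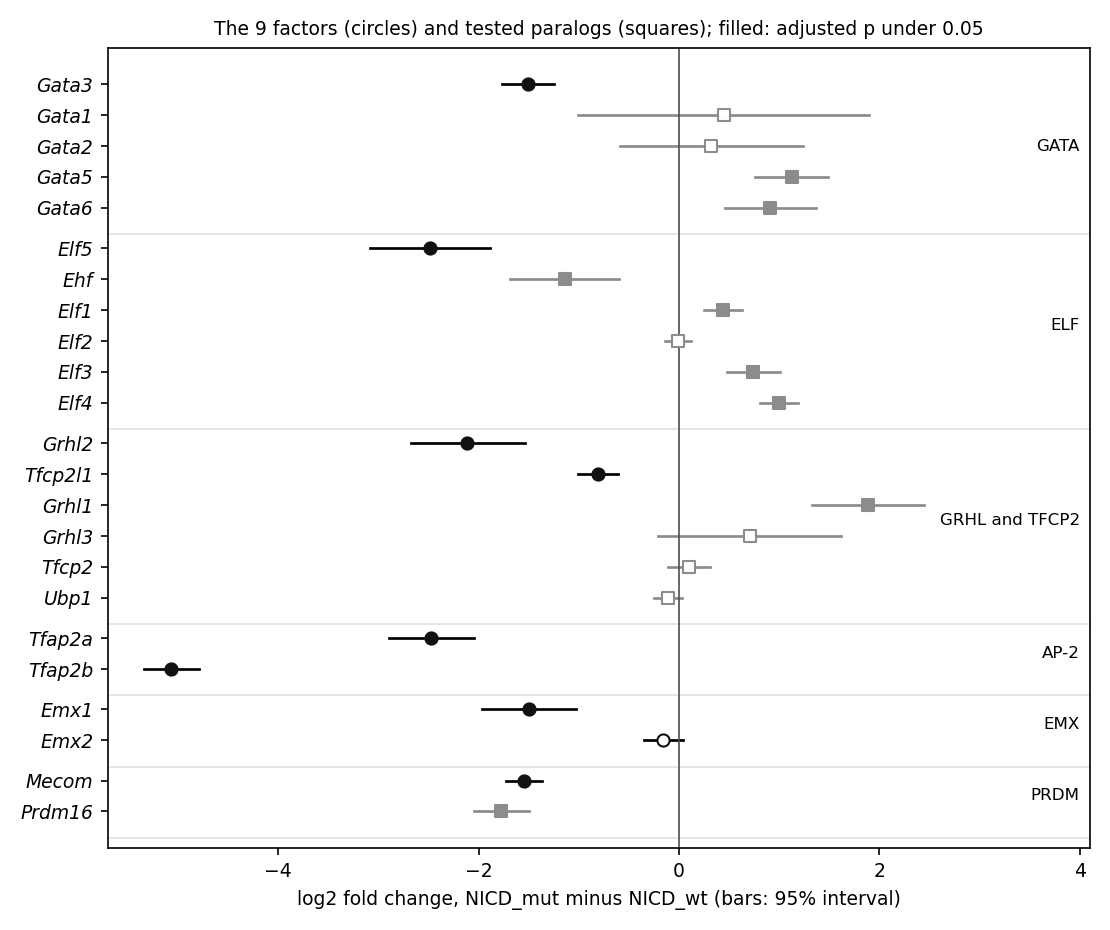
Log2 fold change, NICD_mut minus NICD_wt, of the 9 factors (circles) and of every tested paralog (squares), with bars for the 95% interval of the fit; filled symbols passed the test. Tfap2b lies lowest at -5.07 and Grhl1 highest at 1.89.

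Over the whole list of 18 paralogs, 17 had a count and 14 were tested. Of these 6 rose (23% of all tested genes did), 2 fell and 6 did not pass, with a median log2 fold change of 0.44. Those that fell were Prdm16 and Ehf. Among GATA genes, Gata5 rose by 1.13 (SE 0.16) and Gata6 by 0.91 (SE 0.19), while Gata2 was at 0.32 (SE 0.32; 0.68 without NICD_mut 2, which passed, and -0.18 without NICD_mut 1) and Gata1 at 0.45 (SE 0.64), neither of which passed. Gata4 was too low to be tested, with 49 and 9 counts in NICD_mut against 4, 0 and 1 counts in NICD_wt. Per length, Gata3 stood at 0.269 and 0.384 times Gata2 in NICD_mut, against 1.12, 0.983 and 1.23 times in NICD_wt. The TPM ratio of Tfcp2l1 to Tfcp2 was 1.14 and 1.24 in NICD_mut, against 2.3, 2.33 and 2.03 in NICD_wt, and that of Elf5 to Ehf was 0.116 and 0.362 in NICD_mut, against 0.581, 0.487 and 0.564 in NICD_wt. In all 7 ratios were computed, and 6 did not overlap between the groups, each with an exact permutation p of 0.1 (0.117 after adjustment over the 7).

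Levels between genes were compared per length, in TPM. In NICD_mut the order was Emx2 (39.6 ± 1.84 TPM, SD, n = 2), Tfcp2l1 (31.4 ± 3.19), Mecom (23.6 ± 2.26), Gata3 (14.6 ± 2.96), Emx1 (8.78 ± 2.55), Grhl2 (2.23 ± 0.834), Elf5 (1.79 ± 0.792), Tfap2a (1.4 ± 0.332) and Tfap2b (0.6 ± 0.0849). Grhl2 and Elf5, and Elf5 and Tfap2a, overlapped there, and the other neighbours kept the same order in both libraries. In NICD_wt the order was Mecom (63.6 ± 3.06 TPM, SD, n = 3), Tfcp2l1 (49.6 ± 4.47), Emx2 (40.5 ± 2.85), Gata3 (37.9 ± 2.70), Emx1 (22.9 ± 2.46), Tfap2b (18.6 ± 2.05), Elf5 (9.27 ± 0.490), Grhl2 (8.57 ± 0.987) and Tfap2a (8.48 ± 2.63). There Emx2 overlapped with Gata3, Emx1 with Tfap2b, Elf5 with Grhl2, and Grhl2 with Tfap2a. Mecom, the most abundant of the 9 per length in NICD_wt, was at rank 3 in NICD_mut, and Tfap2b was at rank 9 in NICD_mut and rank 6 in NICD_wt.

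**Figure D3:**
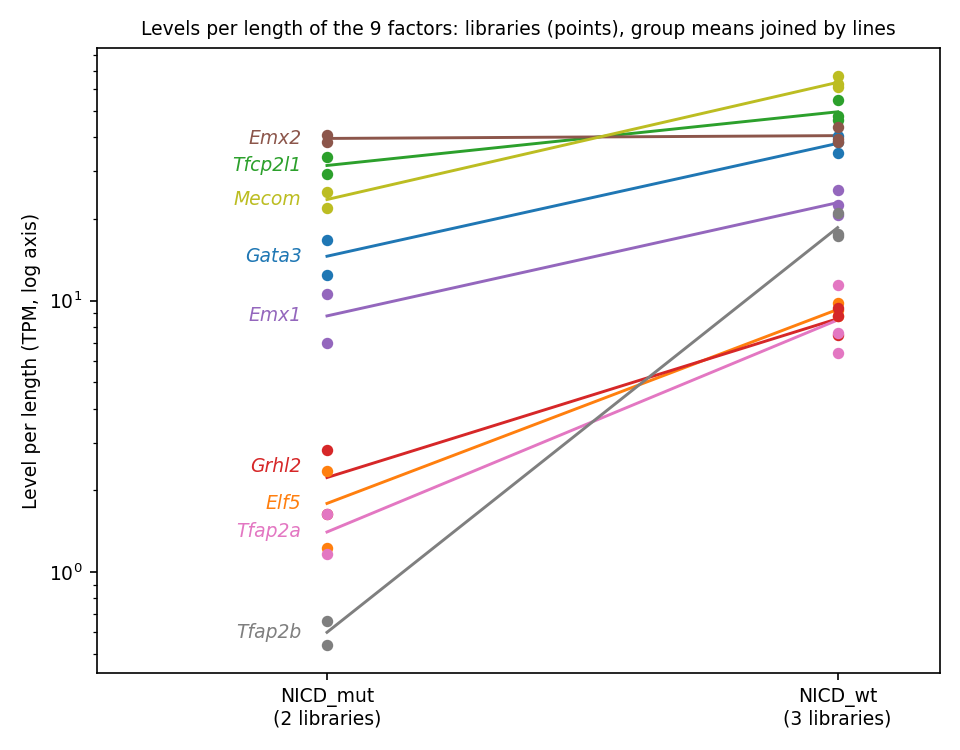
Level per length of each factor in NICD_mut (left) and NICD_wt (right), in TPM on a log axis; points are libraries and lines join group means. The line of Emx2 is flat (39.6 and 40.5 TPM), and that of Tfap2b is steepest (0.6 and 18.6 TPM).

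The 2 deposited tables can be set against each other, since a count divided by its TPM gives the effective length that the authors' quantification assigned to the gene in that library. This was expressed relative to the median gene of the library. For Gata3, Elf5, Tfcp2l1, Emx1, Emx2 and Mecom the highest and lowest of the 5 libraries differed by at most 1.05-fold, and for Grhl2 by 1.11-fold. The median over 12427 genes with at least 50 counts in every library was 1.02-fold. Tfap2a was the exception, with relative lengths of 0.727 and 1.13 in NICD_mut, against 0.849, 0.975 and 0.579 in NICD_wt. Its libraries differed by 1.95-fold, a wider spread than that of 99.6% of those genes. For Tfap2b the spread was 1.35-fold, wider than 97.7%. Both genes had under 50 counts in each NICD_mut library and lie outside that set, so these shares compare unlike counts. The groups overlapped for both genes. Tfap2a in NICD_wt spread from 6.43 to 11.44 TPM, although its CPM there was 10.7 to 11.3. Of the 9 genes, Tfap2a is the one whose TPM, and with it the TPM ratio to Tfap2b, is least precise. From counts alone the ratio of Tfap2a to Tfap2b was 1.05 and 1.23 in NICD_mut, against 0.187, 0.175 and 0.205 in NICD_wt.

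**Figure D4:**
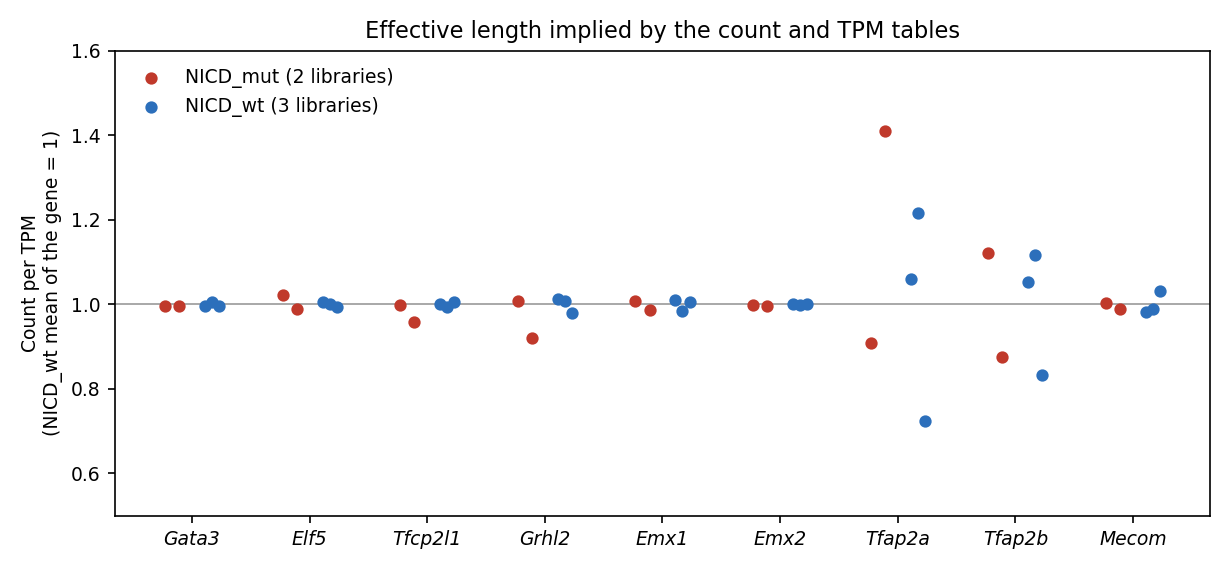
Effective length implied by the ratio of count to TPM, for each factor and library, divided by the mean of that gene in NICD_wt; NICD_mut points are left and NICD_wt points right. Tfap2a and Tfap2b scatter in both groups, while the points of the other genes lie close to 1.

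Other transcription factors of the distal nephron and duct were also mostly lower. Of 24 listed, 23 were tested, and 15 fell (24.8% of all tested genes did), 3 rose and 5 did not pass. Their median log2 fold change was -1.21. The intercalated cell regulator Foxi1 was at -6.68 (SE 0.34), with 3 and 4 counts in NICD_mut against 308, 427 and 315 counts in NICD_wt. The Iroquois genes Irx1 and Irx2 of the intermediate nephron were at -3.38 (SE 0.12) and -5.36 (SE 0.31), Irx2 with 7 and 10 counts in NICD_mut. Hoxb7, a gene of the duct lineage, was at -1.21 (SE 0.09). Hmx2 was not tested, with 0 counts in NICD_mut against 7, 4 and 5 counts in NICD_wt, at least 3.78-fold lower with 3 counts over the group as the floor. Pax8 (0.80, SE 0.15), named after its value was seen, and Elf3 were among those that rose. Of the 15 that fell, 2, Foxi1 among them, were under 10 counts in both NICD_mut libraries and entered the test through NICD_wt. Irx2, under 10 counts in NICD_mut 1, also needed NICD_wt libraries to pass the filter. All these log2 fold changes of single genes passed the same edgeR test.

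Genes known to be regulated by, or expressed with, the 9 factors were counted in lists chosen with earlier results of these data known. Among all tested genes 24.8% fell and 23% rose. Of 12 genes of epithelial junctions and differentiation, several of them known Grhl2 targets, 7 fell, 1 rose and 4 did not pass, with a median of -0.60. The adhesion gene Epcam was at -1.71 (SE 0.10), the splicing regulator Esrp1 at -1.58 (SE 0.10), the vesicle gene Rab25 at -1.51 (SE 0.25) and the protease gene St14 at -0.75 (SE 0.09). The protease Prss8 alone rose, by 0.27 (SE 0.09). It did not pass without NICD_mut 2 (0.15), NICD_wt 1 (0.19), NICD_wt 2 (0.31) or NICD_wt 3 (0.30).

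Of 12 ureteric epithelium genes, 7 fell (24.8% of all tested genes did), 2 rose and 3 missed the threshold. Their median log2 fold change was -1.18. Gfra1, the coreceptor for Gdnf, was at -2.82 (SE 0.07), Wnt9b at -3.38 (SE 0.16), Wnt11 at -1.80 (SE 0.09) and the transporter Slco4c1 at -5.47 (SE 0.42). Adamts18 and Krt8, named after their values were seen, rose by 1.08 (SE 0.20) and 0.73 (SE 0.11). Of the 7 that fell, 2 entered the test through NICD_wt alone. The summed level of the list was 615 and 487 CPM in NICD_mut, against 712 to 730 CPM in NICD_wt.

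Of 11 principal cell genes, 9 fell (24.8% of all tested genes did), 0 rose and 2 missed the threshold. Their median was -1.57, with Kcnj1 under 10 counts in both NICD_mut libraries and tested through NICD_wt alone. Aqp2 (17 and 0 counts in NICD_mut) and Avpr2 (8 and 13) reached 10 counts in only 1 NICD_mut library. Both fell, needed NICD_wt libraries to pass the filter and were named after their values were seen. The sodium channel subunits Scnn1a, Scnn1b and Scnn1g were at -1.24 (SE 0.14), -1.40 (SE 0.10) and -1.78 (SE 0.15), and the potassium channel Kcnj1 at -7.49 (SE 0.78). Of 12 intercalated cell genes, 9 fell, 2 rose and 1 missed the threshold, at a median of -3.54. This count and median lean on genes that were high only in NICD_wt. Of the 9, 6 were under 10 counts in both NICD_mut libraries and passed the filter through NICD_wt, which favours a fall. Among the other 6 genes 3 fell, 2 rose and 1 did not pass. Of those 3, Atp6v1b1 (3 and 13 counts in NICD_mut) and Rhcg (9 and 27) were under 10 counts in NICD_mut 1. Both needed NICD_wt libraries to pass the filter. Rhcg was named after its values were seen. With the filter of 50 counts in 2 libraries 6 genes of the list fell. The proton pump subunit Atp6v1b1 was at -5.57 (SE 0.54). Atp6v1g3 had 1 count over both NICD_mut libraries, a ratio of 116-fold lower with a 95% counting interval of 20.5 to 4596. The chloride channel subunit Bsnd had 2, a ratio of 390-fold lower with an interval of 108 to 3224. Oxgr1, a metabolite receptor, had 0 counts in both NICD_mut libraries and was at least 37.6-fold lower, taking 3 counts over the group as the floor. Atp6v0a4 and Car2, named after their values were seen, rose by 0.62 (SE 0.10) and 0.32 (SE 0.07). Such intervals and floors cover counting error only.

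Of 13 tested genes of the distal and connecting tubule 8 fell (24.8% of all tested genes did), 2 rose and 3 did not pass. Their median was -1.90. Here too 4 of the 8, Calb1, Klk1, Slc12a3 and Trpv5, entered the test through NICD_wt alone. Among the other 9 genes 4 fell, 2 rose and 3 did not pass. Of those 4, Kcnj10 (6 and 13 counts in NICD_mut) was under 10 counts in NICD_mut 1. It also needed NICD_wt libraries to pass the filter. Calb1, which binds calcium in the distal tubule, was at -9.09 (SE 0.19), the potassium channel Kcnj10 at -5.10 (SE 0.31) and the claudin Cldn8 at -1.90 (SE 0.10). Slc12a3, the thiazide-sensitive cotransporter, had 1 count over both NICD_mut libraries, a ratio of 368-fold lower with a 95% counting interval of 65.8 to 14574. Kcnj16 and Wnk1, named after their values were seen, rose by 0.98 (SE 0.08) and 0.23 (SE 0.06), and Wnk1 did not pass without NICD_wt 3 (0.20, edgeR adjusted p = 0.0672).

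**Figure D5:**
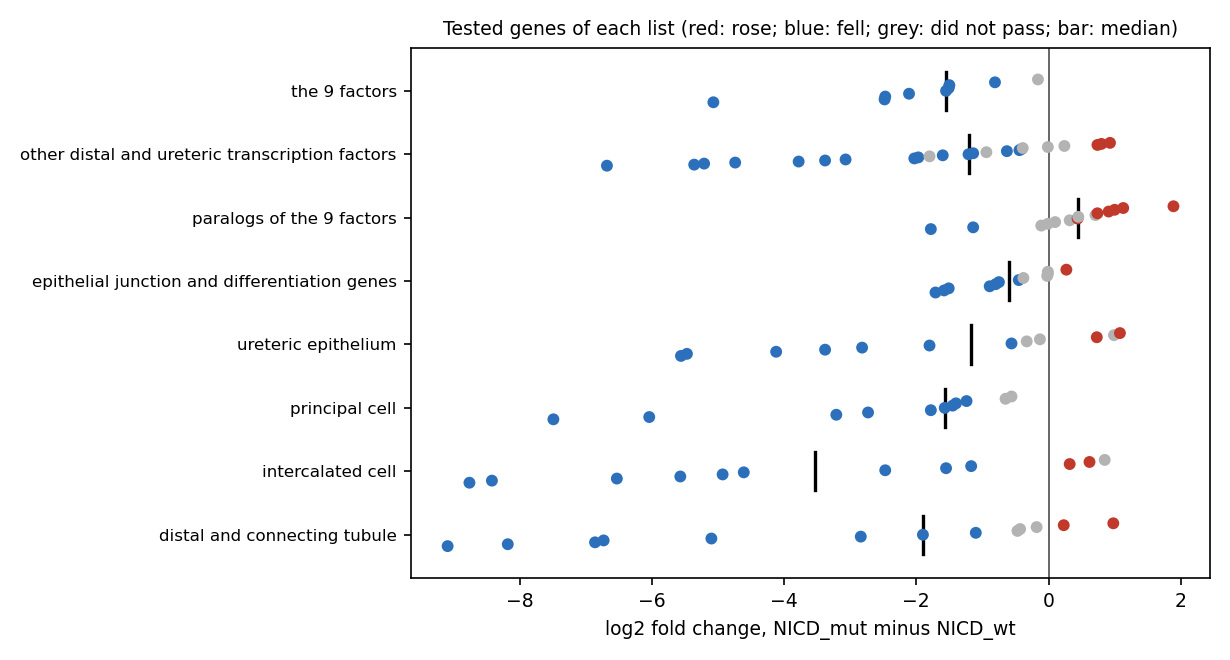
Log2 fold change, NICD_mut minus NICD_wt, of each tested gene in the 9 factors and in 7 lists; red points rose, blue points fell, grey points did not pass, and bars are medians. Genes tested through NICD_wt alone are included. The median is lowest for the intercalated cell list (-3.54) and above 0 only for the paralogs (0.44).

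For each factor, the most similar gene was taken among 150 tested genes of the other lists, by the Euclidean distance between log2 CPM centred on the mean of the 5 libraries. With 5 libraries and 1 contrast, the size of the fold change weighs most in this distance. Gata3 was nearest to Esrp1 (distance 0.19), Mecom to Scnn1b (0.21), Emx1 to the homeobox gene Lhx1 (0.21) and Tfcp2l1 to the nuclear receptor Esrrg (0.24). Grhl2 was nearest to Etv5 (0.31), Elf5 to the water channel Aqp4 (0.37), Tfap2b to Slco4c1 (0.43), Tfap2a to Gfra1 (0.44) and Emx2 to Ubp1 (0.15). Grhl2 and Etv5 shared a lower value in NICD_mut 2, with Etv5 at 38.9 and 17 CPM in NICD_mut against 113 to 115 CPM in NICD_wt. Etv5 passed with all libraries (-2.03, SE 0.40) and not without any 1 NICD_wt library (-2.04 to -2.03). Elf5 and Aqp4 shared the reverse, with Aqp4 at 0.938 and 2.17 CPM in NICD_mut against 8.75 to 11.2 CPM in NICD_wt. Of all tested genes, 0.0126% were as near to Gata3 as Esrp1 was, and 2.58% as near to Emx2 as Ubp1.

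The genes flanking the 9 factors were counted as well. The nearest protein-coding gene of the count table on each side gave 18 neighbours, an addition made after the values had been seen, of which 15 were tested. Of these 5 fell (24.8% of all tested genes did), 1 rose and 9 did not pass. Beside Ehf, those that fell were Pkhd1 next to Tfap2b (-0.90, SE 0.13), Zfp706 next to Grhl2 (-0.50, SE 0.06), Taf3 next to Gata3 (-0.36, SE 0.09) and Pdzd8 next to Emx2 (-0.28, SE 0.06). Pkhd1, the gene of recessive polycystic kidney disease, lies 819.2 kb from Tfap2b, and the neighbour on the other side, Tfap2d, had no count. The catalase gene Cat, 2.9 kb from Elf5, did not pass at 0.08 (SE 0.07), and Gcnt2 next to Tfap2a rose by 0.41 (SE 0.11). Without NICD_wt 3, Taf3 (-0.32, edgeR adjusted p = 0.0538) and Gcnt2 (0.37, edgeR adjusted p = 0.0593) no longer passed, nor did Gcnt2 without NICD_wt 1 (0.40, edgeR adjusted p = 0.0534). Cat passed without NICD_mut 1 (0.17, edgeR adjusted p = 0.0459) and in the 3 limma fits on TPM (0.20, limma adjusted p = 0.0321 to 0.0457).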

How the data were processed

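RNA of whole kidneys was sequenced in 5 libraries. The authors deposited estimated counts per gene symbol, which are whole numbers, and TPM values, which are scaled to one total per library. Per the submitters' processing notes, reads were handled with Bowtie2 and RSEM on mm10; the sources used here do not give versions, annotation or strand setting. RSEM shares ambiguous reads by estimation, so close paralogs are less certain.

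Here low genes were removed by filterByExpr (count of at least 10, total of at least 15), and counts were scaled by TMM and tested with the edgeR 4.0.16 quasi-likelihood test (robust, no covariate) in R 4.3.3, NICD_mut against NICD_wt, with Benjamini-Hochberg adjustment over 15885 genes and a threshold of 0.05. Gene coordinates are GENCODE M21 on mm10, 1-based. Replicates within a group differed beyond sampling noise (chi-square per degree of freedom of 4.59 or more), so none was merged. The test was checked on simulated counts.

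The 9 genes and the lists were chosen with earlier results of these data known. Named genes were the 9, all paralogs, up to 4 genes per list with the smallest adjusted p, any gene alone against its list, and the nearest gene to each factor. A gene of the list of other transcription factors is counted but not reported by name here. Alternatives used DESeq2 1.42.0 and limma 3.58.1.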

Additional observations from a re-analysis of the deposited data

How the results depend on the processing

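The 8 falls and the result for Emx2 kept their direction and their side of the threshold in all 144 values of the 9 genes over 16 alternatives. These were other scalings (by DESeq2 size factors or by library size), no filter or a filter of 50 counts in 2 libraries, the DESeq2 Wald test, limma-voom, limma on log2(TPM + 1) and log2(TPM + 0.1), a fit with replicate number as a replicate block, every library omitted once, and NICD_mut 1 and NICD_wt 1 both left out. The highest adjusted p over these alternatives was 0.00732 among the 8, for Grhl2, and Emx2 ranged from 0.052 to 0.865. Leaving out 1 library gave log2 fold changes of -5.11 to -5.03 for Tfap2b, -3.04 to -2.08 for Elf5, -2.60 to -1.75 for Grhl2, -1.86 to -1.22 for Emx1 and -0.92 to -0.71 for Tfcp2l1. A fit that keeps 1 NICD_mut library assumes that it varies as the NICD_wt libraries do. On log2(TPM + 1) Tfap2b was at -3.61, since the pseudocount shrinks low levels, and the median of all genes moved to 0.106 (0.116 with a pseudocount of 0.1), against 0.013 from counts. That fit passed 2785 genes as lower and 4307 as higher. Of the list counts, the replicate block left 1 paralog that fell, 1 intercalated cell gene that rose and 1 distal and connecting tubule gene that rose. With 1 library left out, the epithelial junction genes that rose numbered 0 to 1 and the distal and connecting tubule genes that rose 1 to 2. In deviations from the group means, NICD_mut 1 correlated at 0.34 with NICD_wt 1, -0.15 with NICD_wt 2 and -0.23 with NICD_wt 3. NICD_mut 1 and NICD_wt 1 also had the most muscle transcripts of their groups, and the part of these in the correlation was not tested. With 2 NICD_mut libraries, their deviations mirror each other, so NICD_mut 2 adds nothing and this check cannot decide whether the numbers are pairs. The labels state no covariate, and the main fit did not take the numbers as pairs. The block passed 2881 genes as lower and 2654 as higher, against 3934 and 3649 without it. Of 972 values of 61 other named genes, 914 kept direction and side. The 18 reversals were of genes that did not pass with all libraries. Elf2 was at 0.01 with 50 counts in 2 libraries, with the block and without NICD_wt 3, and at 0.14 by the 3 limma fits on TPM, where Ubp1 was at 0.01. Without NICD_mut 1, Gata2 was at -0.18, Gata1 at -0.24, Grhl3 at -0.09 and Emx2os at -0.30, whereas Cat was at 0.17. Without NICD_mut 2, Gata2 was at 0.68 and Grhl3 at 1.21, both past the threshold, and Gata1 at 0.90. Without NICD_mut 1 and NICD_wt 1, Gata2 and Grhl3 were each at -0.25. Emx2os was at -0.18 without NICD_wt 2 and -0.12 without NICD_wt 3 and at 0.76 without NICD_wt 1, and Cat at -0.03 without NICD_mut 2. The causes were not tested. Among passing genes, Ehf, Prss8, Etv5, Taf3, Pdzd8, Gcnt2, Wnk1, Car2 and 4930412O13Rik missed the threshold in at least 1 alternative. Counts of 30 to 118 for Elf5, Emx1, Tfap2a and Tfap2b in NICD_mut limit the precision of their levels there.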
